A study of Mus musculus with 5 samples.

Results

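The 10 transcription factors described here, of the endothelium and endocardium, are Hhex, Sox7, Sox17, Sox18, Ets1, Erg, Fli1, Tal1, Lmo2 and Nfatc1. Their expression was read on arrays of embryonic mouse hearts (E10.5). They were taken by gene symbol from a table of 23279 named genes, with the brightest probe set of a gene where it had several, and each of the 10 genes had 1 probe set. The knockout group was 2 samples labelled KO for genotype, and the control group was 3 samples labelled Control. The title of the series names LRRFIP2, hypoxia and embryonic cardiogenesis, so the knockout is taken here to be of Lrrfip2. The labels give no strain, no allele, no Cre driver and no genotype of the controls beyond that word, and they do not say if hearts were pooled. All samples were untreated and came from whole embryonic heart. The p-values weigh a group difference against the spread within the groups of these 5 samples, estimated with help from all genes tested. The 10 genes were selected on what they encode and with the knockout minus control differences of these arrays already known, and the probe set was to be chosen by its mean level over all arrays, so the differences below describe the genes and are not independent evidence about them.

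The endocardium is the endothelial lining of the heart tube. SOX factors of the F group (Sox7, Sox17, Sox18) and ETS factors (Ets1, Erg, Fli1) bind the regulatory DNA of many endothelial genes and act together with signalling by vascular endothelial growth factor. Tal1 and Lmo2 sit in a DNA-binding complex that is needed for both blood and endothelial development. Nfatc1, which enters the nucleus when the phosphatase calcineurin is active, marks the endocardium and is required for heart valves, and Hhex is a homeobox repressor expressed in early endothelium and in anterior endoderm.

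Levels are log2 RMA values, the scale on which the authors deposited them, and differences are knockout minus control. Levels of different genes are not set against each other, because probe sets differ in brightness. All 10 factors had a mean level above 4.44, the limit under which genes were left out of the test as dim. In limma, which fits a linear model for each gene across all genes tested, 0 of the 13967 genes passed an adjusted p of 0.05, so 0 of the 10 factors did, against 0% of all genes. At an unadjusted p under 0.05 there were 5 factors, against 8.78% of all genes: 4 with higher levels in the knockout, against 3.29% of all genes, and 1 with a lower level, against 5.49%. Without control replicate 2 the count was 2 factors (5.63% of all genes), without control replicate 3 it was 3 (7.65%), and without knockout replicate 1 it was 3 (17.0%), of which Erg, with its sign turned, was not among the 5. Without knockout replicate 2, where 27.4% of all genes had such a p, 3 factors and 1011 genes in all passed the adjusted threshold. The knockout arrays lay above every control array for 5 factors (8.18% of all genes) and below every control array for 2 (13.1%). In all, 7 factors were higher (44.6% of all genes) and 3 lower (55.4%), with a median log2 difference of 0.28, where the median over all genes tested was -0.02.

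**Figure D1:**
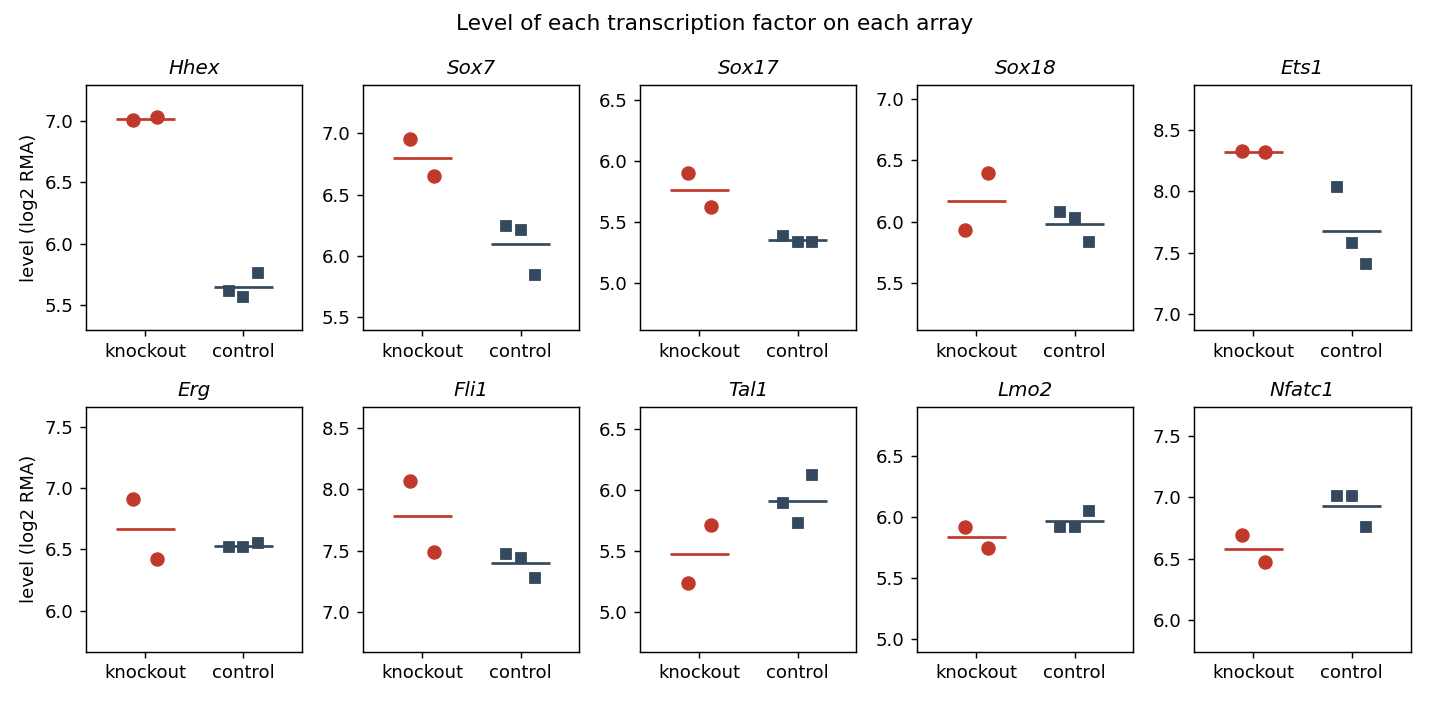
Level (log2 RMA) of each of the 10 transcription factors on the 2 knockout arrays (circles, left) and the 3 control arrays (squares, right), with bars at the group means. Every panel spans the same height on the log2 scale. Both knockout arrays lie far above the controls for Hhex, above them by less for Sox7, Sox17, Ets1 and Fli1, and below them for Tal1 and Nfatc1.

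The arrays differed in the levels of genes that mark other tissues, and the part of this in the levels of the 10 factors was not tested. Array medians lay between 5.07 and 5.11. The targeted gene Lrrfip2 was lower in the knockout, at 6.36 and 6.22 against 7.33, 8.07 and 8.08 in the control arrays. Heart muscle genes were bright on every array, with Tnnt2 (cardiac troponin T) at 12.40 and 12.19 in the knockout and 12.29 to 12.31 in the control arrays, and so were the endothelial cadherin Cdh5 (9.82 and 9.74 against 9.43 to 9.67) and the endocardial receptor Npr3 (9.45 and 8.87 against 8.80 to 8.95). Of the 12 heart muscle genes tested, 3 were higher in the knockout (44.6% of all genes) and 9 lower (55.4%). Both knockout arrays lay below every control array for 5 of them (13.1% of all genes) and above for 1 (8.18%). Knockout replicate 2 held transcripts of liver and gut endoderm, a list whose mean level was 7.25 there, 4.48 in knockout replicate 1 and 4.52 to 4.56 in the controls. Knockout replicate 1 had the highest white cell and platelet lineage lists, and control replicate 3 the highest red cell list. Only control replicate 1 expressed Y-linked genes, at a mean of 7.02 against 2.72 to 2.99 on the other arrays. In whole hearts, fewer cells of a type and less RNA per cell cannot be told apart.

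Hhex had the widest gap between the groups among the 10 factors. It was at 7.01 and 7.03 in the knockout arrays, against 5.61, 5.56 and 5.76 in the controls. The knockout arrays differed from each other by less than the controls did, and every knockout value lay well above every control value. The difference was 1.37 ± 0.08 (SE), a 2.59-fold higher level, with a 95% interval of 1.16 to 1.58, an unadjusted limma p of 4.94e-05 and an adjusted p of 0.287. That p ranked 2 among the 13967 genes.

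Hhex is also a gene of the endoderm, and the endoderm transcripts were those of 1 array. The serum protein gene Afp was at 3.86 and 11.42 in knockout replicates 1 and 2, against 3.88 to 4.07 in the controls. The mean level of the endoderm list in knockout replicate 1 lay just below the control range, and Hhex was at 7.01 there, beside 7.03 in knockout replicate 2. The part of endoderm transcripts in the Hhex levels was not tested. Without knockout replicate 2 the difference was 1.36, and without knockout replicate 1 it was 1.38. Leaving out any 1 array kept it between 1.33 and 1.43. When every array was centred on its mean over the endothelial surface genes, the difference was 1.18. Several TLE proteins are Groucho-related co-repressors, and some of these bind Hhex. Of the 5 Tle genes 3 were higher and 2 lower, with 0 at an unadjusted p under 0.05. The Tle gene with the smallest p was Tle5, at 8.18 and 8.44 in the knockout arrays, against 8.64, 8.50 and 8.69 in the controls.

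The promoter window of Hhex is shown because this gene had the widest difference, beside the one window of Erg that held matches to the motifs named here, a factor whose groups overlapped. The windows are from RefSeq on build GRCm38.p6 and run from 250 bases before to 50 bases after a transcript start. Such windows were at hand for 3 of the 10 factors, Hhex, Erg and Tal1. Capitals mark matches, on either strand, to the ETS motifs CAGGAAG and CCGGAAG, the SOX core ACAAT, the GATA motif GATAA and the cores ACGTG and GCGTG of the hypoxia response element. The Hhex window is chr19:37434591-37434890 on the plus strand and the Erg window chr16:95459299-95459598 on the minus strand.
Hhex: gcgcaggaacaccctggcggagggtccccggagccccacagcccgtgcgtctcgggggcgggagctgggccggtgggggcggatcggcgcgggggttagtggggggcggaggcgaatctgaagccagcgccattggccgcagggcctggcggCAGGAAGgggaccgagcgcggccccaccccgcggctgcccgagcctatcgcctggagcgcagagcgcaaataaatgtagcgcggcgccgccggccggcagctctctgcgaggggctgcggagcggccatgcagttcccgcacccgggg
Erg: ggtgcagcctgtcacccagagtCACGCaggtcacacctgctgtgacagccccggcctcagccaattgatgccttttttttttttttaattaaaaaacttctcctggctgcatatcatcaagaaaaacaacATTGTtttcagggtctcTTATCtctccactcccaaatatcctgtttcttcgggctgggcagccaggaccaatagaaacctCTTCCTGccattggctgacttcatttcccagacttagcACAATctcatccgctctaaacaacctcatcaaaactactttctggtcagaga

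The Hhex window held 1 match, to CAGGAAG, beginning 98 bases before the start, and 13.3% of all 32851 windows held that motif. It held 0 matches to either hypoxia core, found in 19.6% (ACGTG) and 32.4% (GCGTG) of windows. The Erg window held 2 matches to ACAAT (31% of windows), 1 to CAGGAAG, 1 to GATAA (25.4%) and 1 to GCGTG. In the 2 Tal1 windows, 1 match to GATAA lay 205 bases before the first start. A match is a string of letters and not a site shown to be bound, and no match concerns only these windows.

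The genes nearest to Hhex were sought among the genes tested, by the root mean square distance between control-centred log2 values over the 5 arrays. This distance takes in the size of the knockout difference, so it finds genes with a difference like that of Hhex. The nearest were the vascular growth factor gene Vegfa (distance 0.13), Chac1, which degrades glutathione (0.14), Tmem45a (0.14), the vasodilator peptide gene Adm (0.16) and the collagen prolyl hydroxylase gene P4ha1 (0.18). Vegfa stood 1.48 and 1.14 above its control mean in knockout replicates 1 and 2, and Adm 1.55 and 1.42. The other 9 factors had smaller differences than Hhex and so were bound to lie farther from it. The nearest of them, Sox7, lay at a distance of 0.48.

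Among the SOX factors of the F group, Sox7 and Sox17 were higher in both knockout arrays and Sox18 in 1 of them. Sox7 was at 6.95 and 6.65 in the knockout arrays, against 6.24, 6.21 and 5.84 in the controls, with control replicate 3 the lowest. The groups did not overlap, and the difference was 0.70 ± 0.18 (SE), 1.63-fold, with an unadjusted limma p of 0.016 and an adjusted p of 0.453. Without knockout replicate 1 it was 0.55, at an unadjusted limma p of 0.104.

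Sox17, a gene of arterial endothelium, endocardium and endoderm, was at 5.90 and 5.62 in the knockout arrays and at 5.39, 5.34 and 5.34 in the controls. The controls lay within 0.05 of each other and both knockout arrays were above them. The part of endoderm transcripts in the Sox17 level of knockout replicate 2 was not tested. The difference was 0.40 ± 0.10 (SE), with an unadjusted limma p of 0.013 and an adjusted p of 0.434. It was 0.54 without knockout replicate 2 and 0.27 without knockout replicate 1.

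Sox18, which is active in lymphatic and blood vessel endothelium, was at 5.93 and 6.40 in the knockout arrays and at 6.08, 6.03 and 5.83 in the controls. Knockout replicate 1 lay within the control range and knockout replicate 2 above it. The difference of 0.19 had a 95% interval of -0.30 to 0.67 and an adjusted p of 0.646 in limma. Without knockout replicate 2 it was -0.05. Prox1, a lymphatic and hepatic factor reported as a Sox18 target in mouse, was likewise highest in knockout replicate 2, at 8.12 against 7.77 in knockout replicate 1 and 7.62 to 7.71 in the controls. Both values stand on the array with endoderm transcripts, whose part in them was not tested. Outside the F group, 13 other SOX genes were tested, 4 higher and 9 lower in the knockout, and their median difference was -0.02 with 0 at an unadjusted p under 0.05. Sox9, a factor of the cushion mesenchyme, was at 6.71 and 7.19 in the knockout arrays, against 7.48, 7.26 and 7.19 in the controls. The cushion mesenchyme list of 12 genes was low on the same array, with mean levels of 6.87 and 7.49 for the knockout, against 7.54, 7.49 and 7.15 for the controls, and its part in Sox9 was not tested.

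Of the ETS factors, Ets1 was high on both knockout arrays. Ets1 was at 8.33 and 8.32 in the knockout arrays, against 8.04, 7.58 and 7.41 in the controls. The knockout arrays were nearly equal and above all controls, while the controls themselves spread over 0.63. The difference was 0.64 ± 0.21 (SE), 1.56-fold, with an unadjusted limma p of 0.038 and an adjusted p of 0.542. It was 0.83 without control replicate 1 and 0.51 without control replicate 3, and the unadjusted limma p was 0.0021 and 0.085 in those fits.

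Erg and Fli1 are closely related ETS factors that maintain the endothelial state and are also found in the platelet lineage. Both were highest in knockout replicate 1. Fli1 was at 8.07 and 7.49 in the knockout arrays and at 7.47, 7.44 and 7.28 in the controls. Knockout replicate 2 lay only just above the highest control. The difference of 0.38 ± 0.20 (SE) had a 95% interval of -0.17 to 0.93 and an adjusted p of 0.570 in limma. It was 0.09 without knockout replicate 1. Erg was at 6.91 and 6.42 in the knockout arrays and at 6.52, 6.52 and 6.55 in the controls, so that the knockout arrays fell on opposite sides of them. Its difference was 0.13, with a 95% interval of -0.31 to 0.58 and an adjusted p of 0.723 in limma. It was 0.38 without knockout replicate 2 and -0.11 without knockout replicate 1.

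Knockout replicate 1 had the highest means of the platelet lineage and white cell lists, but not of the red cell list. On that array, more of the tested endothelial surface genes lay above every control than below every control. The junction protein gene Pecam1 was at 9.34 there and 8.62 on the other knockout array, with the controls at 8.29 to 8.58. Emcn, a sialomucin of the endothelial surface, was at 9.38 and 8.50, against 8.27 to 8.50. The co-receptor gene Eng was at 8.33 and Plvap at 6.86 in knockout replicate 1, below every control (8.42 to 8.81 and 7.01 to 7.56). Averaged over the 22 surface genes, the level was 7.53 on that array, against 7.14 to 7.39 in the controls. Of the platelet lineage list, 7 of 9 genes were in the table, with mean levels of 6.39 and 5.80 in the knockout arrays, against 6.10, 5.65 and 5.63 in the controls. Of the white cell list, 13 of 14 genes were in the table. Their mean levels were 5.34 and 4.74 in the knockout arrays and 4.75 to 4.83 in the controls. The defining leukocyte gene Ptprc was at 4.25 on the first knockout array and at 3.11 to 3.16 elsewhere. C1qa of the same list was lowest on the first knockout array, at 4.85 against 5.10 to 5.42 elsewhere. The part of these cells in the Erg and Fli1 levels was not tested. Among 17 other ETS genes tested, 9 had higher and 8 lower levels in the knockout, and their median difference was 0.00 with 0 at an unadjusted p under 0.05. The smallest p of that family belonged to Elk4, with a difference of -0.21. Etv1 was at 7.48 and 7.43 in the knockout arrays, against 7.31, 7.14 and 6.71 in the controls.

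**Figure D2:**
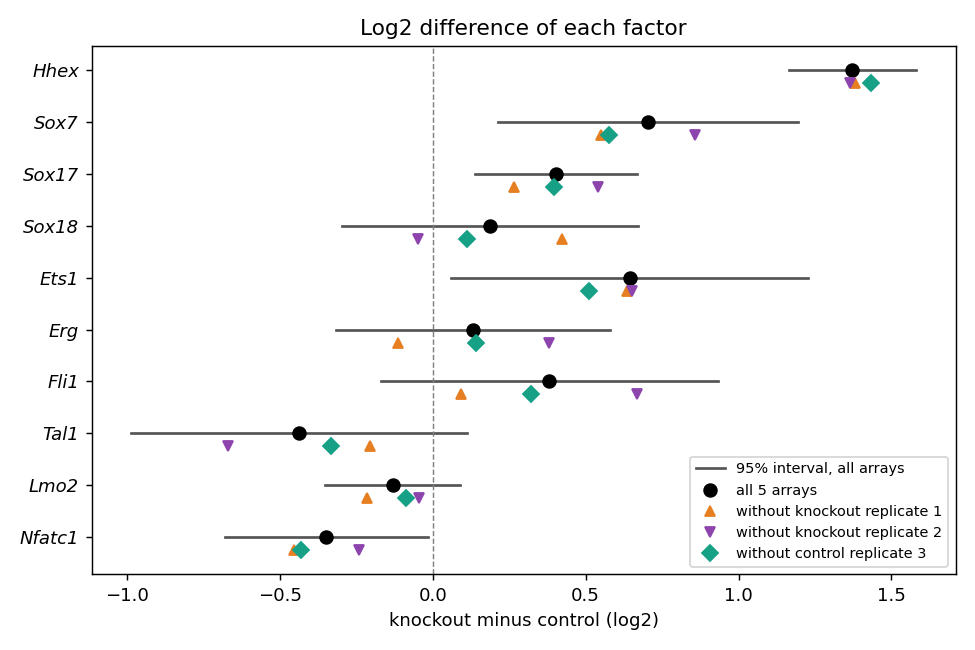
Knockout minus control difference (log2) of each factor with its 95% interval over all 5 arrays, and the differences without knockout replicate 1, knockout replicate 2 or control replicate 3. Hhex stays between 1.36 and 1.43 in these fits, whereas Erg is at -0.11 without knockout replicate 1 and 0.38 without knockout replicate 2, and Sox18 at 0.42 and -0.05.

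The partners Tal1 and Lmo2 were both lower in the knockout, by amounts that did not pass the test. Tal1, a basic helix-loop-helix factor, was at 5.24 and 5.71 in the knockout arrays, against 5.89, 5.73 and 6.12 in the controls. Knockout replicate 2 lay just under the lowest control. The difference was -0.44 ± 0.20 (SE), with a 95% interval of -0.99 to 0.11, an unadjusted limma p of 0.092 and an adjusted p of 0.570. It was -0.21 without knockout replicate 1 and -0.67 without knockout replicate 2. Lmo2, the LIM-domain bridge of the complex, was at 5.92 and 5.75 in the knockout arrays and at 5.92, 5.92 and 6.05 in the controls, with overlapping groups. Its difference of -0.13 had a 95% interval of -0.35 to 0.09 and an adjusted p of 0.570 in limma.

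Both genes are also expressed in red cell precursors, and both were highest in control replicate 3, the array with the most red cell transcripts. Of the red cell list, 13 of 16 genes were in the table, with mean levels of 7.38 and 7.42 for the knockout, against 7.79, 7.27 and 8.63 for control replicates 1, 2 and 3. The anion exchanger gene Slc4a1 was at 6.12 and 7.03 in the knockout arrays, against 7.83, 6.82 and 9.34 in the controls, and the embryonic globin gene Hbb-bh1 at 11.87 and 12.02 against 12.26, 11.71 and 12.54. Without control replicate 3 the differences were -0.33 for Tal1 and -0.09 for Lmo2. The part of red cells in these levels was not tested. 

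The other genes of the complex had no common direction. Of 13 partners tested, 6 had higher and 7 lower levels in the knockout, and their median difference was -0.03 with 0 at an unadjusted p under 0.05. Ldb2, a LIM-domain binding factor, had the largest difference of them (0.75, with an adjusted p of 0.570 in limma), at 7.17 and 7.05 in the knockout arrays against 6.61, 6.61 and 5.88 in the controls. The ubiquitous co-factor Ldb1 was at 8.97 and 9.31 against 9.26, 9.23 and 9.23, and the related helix-loop-helix factor Lyl1 at 5.18 and 5.15 against 5.20, 5.12 and 5.53. Gata1, the red cell partner, was at 5.79 and 5.78 against 5.61, 5.57 and 6.61, and Gata2 at 5.49 and 5.59 against 5.59, 5.77 and 5.67. Runx1, which marks the endothelium that gives rise to blood, was at 5.04 and 4.61 against 4.61, 4.52 and 4.45.

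Nfatc1, the endocardial factor of the set, was lower in both knockout arrays. It was at 6.69 and 6.47 there, against 7.01, 7.01 and 6.76 in the controls, with 6.69 and 6.76 the closest values of the groups. The difference was -0.35 ± 0.12 (SE), 1.27-fold lower, with a 95% interval of -0.68 to -0.02, an unadjusted limma p of 0.044 and an adjusted p of 0.552. It was -0.24 without knockout replicate 2 and -0.45 without knockout replicate 1. Of the other NFAT factors, Nfatc2 differed by -0.23, Nfatc4 by 0.28 and Nfat5 by 0.01. Nfatc3 was at 8.03 and 8.33 against 8.35, 8.39 and 8.33.

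The calcineurin genes Ppp3ca, Ppp3cb and Ppp3r1 differed by 0.14, 0.01 and -0.04. Rcan1, a calcineurin inhibitor that Nfatc1 activates in the endocardium, was high on the first knockout array, at 9.77 and 8.69 in the knockout, against 8.60, 8.56 and 8.64 in the controls. Of the 10 genes of NFAT and calcineurin signalling, 6 were higher and 4 lower, with 0 at an unadjusted p under 0.05. Endocardial genes were split, with 5 of 10 higher and 5 lower and 0 at that p. Nrg1, the endocardial signal for trabeculae, was at 6.32 and 5.46 in the knockout arrays against 6.50, 6.54 and 6.91 in the controls, a difference of -0.76 ± 0.31 (SE). Gata5, an endocardial GATA factor, was at 7.22 and 7.94 against 8.08, 8.07 and 7.86. Bmp6, with the smallest limma p of that list, was higher in the knockout. It was at 4.98 and 4.55 against 4.35, 4.43 and 4.30, a difference of 0.40. Tmem100 was at 6.65 and 5.44 against 5.44, 5.44 and 4.97.

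**Figure D3:**
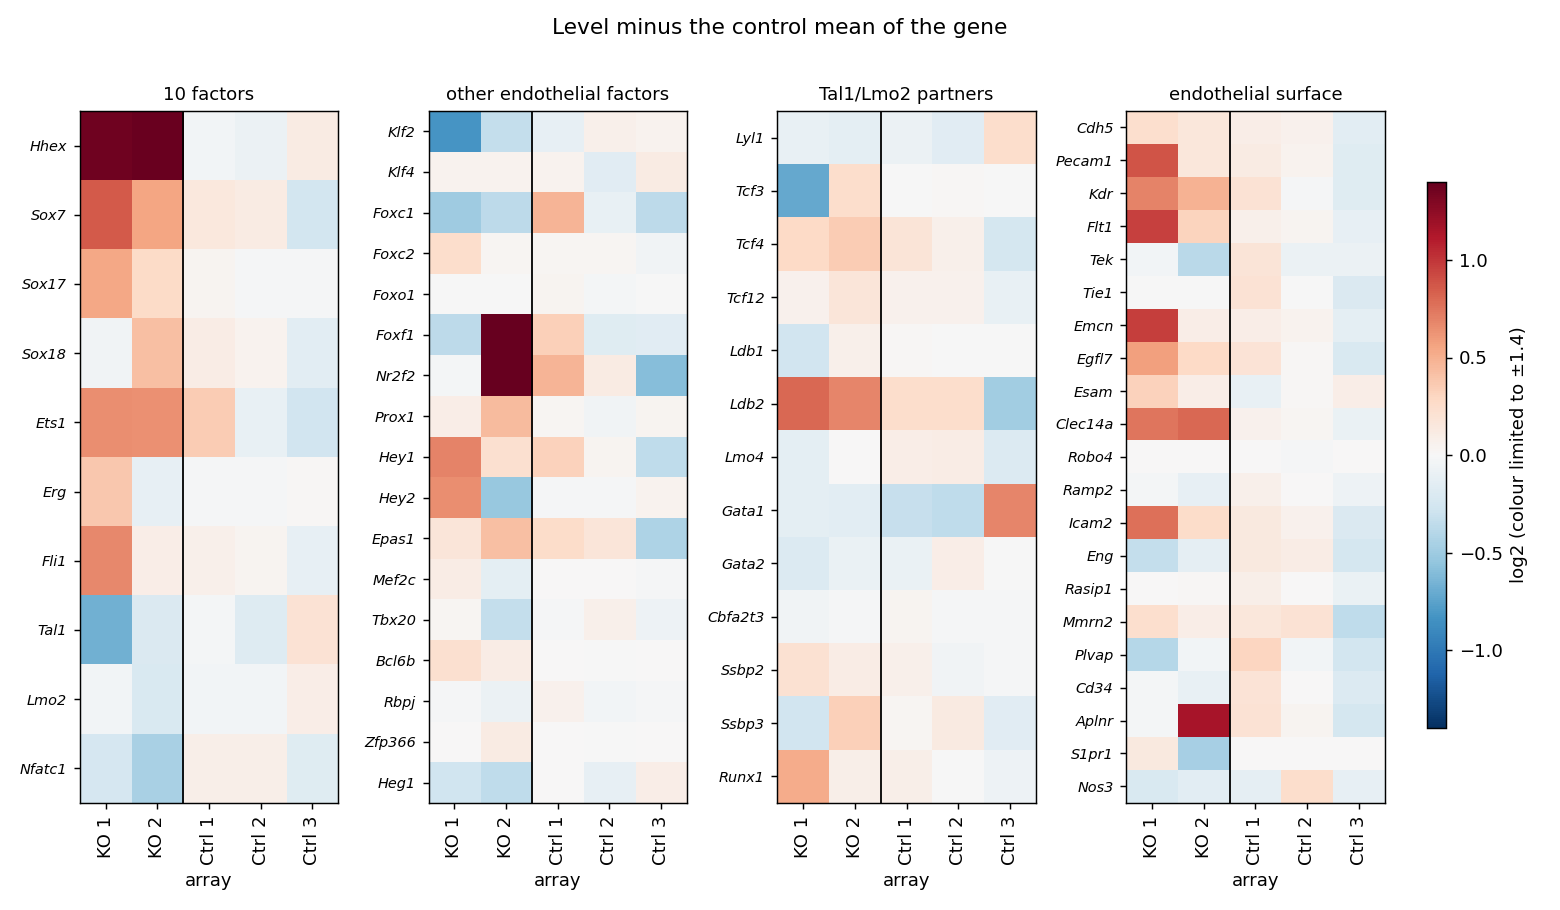
Level minus the control mean of the gene (log2, colour) on each of the 5 arrays for the 10 factors, other endothelial transcription factors, partners of Tal1 and Lmo2, and endothelial surface genes, tested genes only. The line parts the 2 knockout from the 3 control arrays. Hhex, Sox7, Ets1, Ldb2 and Clec14a are high on both knockout arrays, while Erg, Pecam1 and Emcn are highest on knockout replicate 1.

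Other transcription factors of the endothelium differed in both directions as well. Of 17 tested, 10 had higher levels in the knockout (44.6% of all genes) and 7 lower (55.4%), with a median difference of 0.06. An unadjusted limma p under 0.05 was reached by 3 (17.6%, against 8.78% of all genes), 1 higher and 2 lower. The endothelial repressor gene Bcl6b was the higher one, at 6.29 and 6.16 in the knockout arrays against 6.07, 6.05 and 6.07 in the controls (difference 0.16). Klf2, the factor induced by blood flow, was at 6.15 and 6.64 against 6.86, 7.05 and 7.02, a difference of -0.58 ± 0.17 (SE) with an adjusted limma p of 0.506. Heg1, which is a transmembrane receptor and not a factor although the list holds it, was at 8.87 and 8.80 against 9.16, 9.04 and 9.25, a difference of -0.32.

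The venous factor Nr2f2 (6.16 and 7.74 in the knockout arrays, 6.66, 6.30 and 5.59 in the controls) and the mesenchymal factor Foxf1 (4.25 and 6.73 against 4.95, 4.45 and 4.46) were high in knockout replicate 2 alone. The arterial factors Hey1 (8.77 and 8.31 against 8.40, 8.12 and 7.72) and Hey2 (9.06 and 7.88 against 8.39, 8.39 and 8.45) were highest in knockout replicate 1. Etv2, which starts the endothelial programme earlier in development, was at 5.91 and 5.61 against 5.78, 5.91 and 5.91.

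Endothelial surface and junction genes, the receptors and adhesion proteins of the same cells, differed in both directions. Of 21 tested, 13 had higher levels in the knockout (44.6% of all genes) and 8 lower (55.4%), with a median difference of 0.17. An unadjusted limma p under 0.05 was reached by 3 (14.3%, against 8.78% of all genes), all higher. These were the lectin gene Clec14a (0.78), the growth factor receptor Kdr (0.60) and its relative Flt1 (0.64). Cdh5 differed by 0.20, Tek by -0.20, Tie1 by 0.00 and Eng by -0.23. Averaged over all 22 genes, the level was 7.53 and 7.42 for the knockout, against 7.39, 7.31 and 7.14 for the controls. Of the surface genes, 16 of the 21 tested were lowest among the controls in control replicate 3. Of the factors, Sox7, Sox18, Ets1, Fli1 and Nfatc1 were lowest among the controls in that array too, while Hhex, Erg, Tal1 and Lmo2 were highest there. The share of all genes lowest in that array was not counted.

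With each array centred on its mean over the endothelial surface genes, the median of all genes tested moved by -0.19. In that setting Hhex differed by 1.18, Sox7 by 0.51, Ets1 by 0.45, Sox17 by 0.21 and Fli1 by 0.19. Nfatc1 was at -0.54, Tal1 at -0.63 and Lmo2 at -0.32, and Sox18 and Erg were at -0.00 and -0.06. In that fit 18.8% of all genes had an unadjusted limma p under 0.05, against 8.78% in the main fit, and 157 genes passed. The adjusted limma p of Hhex was 0.0021 there, although its SE was larger than in the main fit (0.18 against 0.08). The adjusted p of the 2 fits are thus not on 1 scale.

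Genes reported as targets of the 10 factors differed in both directions. Of 18 tested, 10 had higher levels in the knockout (44.6% of all genes) and 8 lower (55.4%), with a median difference of 0.02. An unadjusted limma p under 0.05 was reached by 2 (11.1%, against 8.78% of all genes), both higher. These were Kdr and the Notch ligand gene Dll4, which was at 6.30 and 5.75 in the knockout arrays against 5.34, 5.63 and 5.39 in the controls. Icam2, a target of Erg in human endothelial cells, was at 8.58 and 8.06 against 7.94, 7.87 and 7.61. Ctsk and Klf1 of the same list were below every control in both knockout arrays. Ctsk was at 4.48 and 4.44 against 4.82, 4.83 and 4.56, and Klf1 at 5.23 and 5.05 against 5.66, 5.29 and 5.89. Vwf, the platelet-binding protein of endothelium, was at 7.56 and 6.85 against 6.76, 6.53 and 6.16. The tight junction gene Cldn5 was too dim to test, at 4.30 and 4.79 in the knockout arrays, against 4.30, 4.17 and 4.20 in the controls.

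The pattern of Sox7 was the second one searched for near neighbours, by the same distance, which takes in the size of the difference. The closest genes were the endothelial adhesion receptor gene Adgrl4 (distance 0.05), Rasgrp3 (0.05), the Wnt receptor gene Fzd1 (0.06), the pyruvate dehydrogenase kinase gene Pdk1 (0.06) and Plekha2 (0.07). Adgrl4 stood 0.87 and 0.48 above its control mean in knockout replicates 1 and 2, and at 0.16, 0.17 and -0.33 in the controls. Among the 10 factors, Sox7 and Ets1 were each other's nearest (0.17), as were Sox17 and Fli1 (0.11) and Lmo2 and Nfatc1 (0.20).

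**Figure D4:**
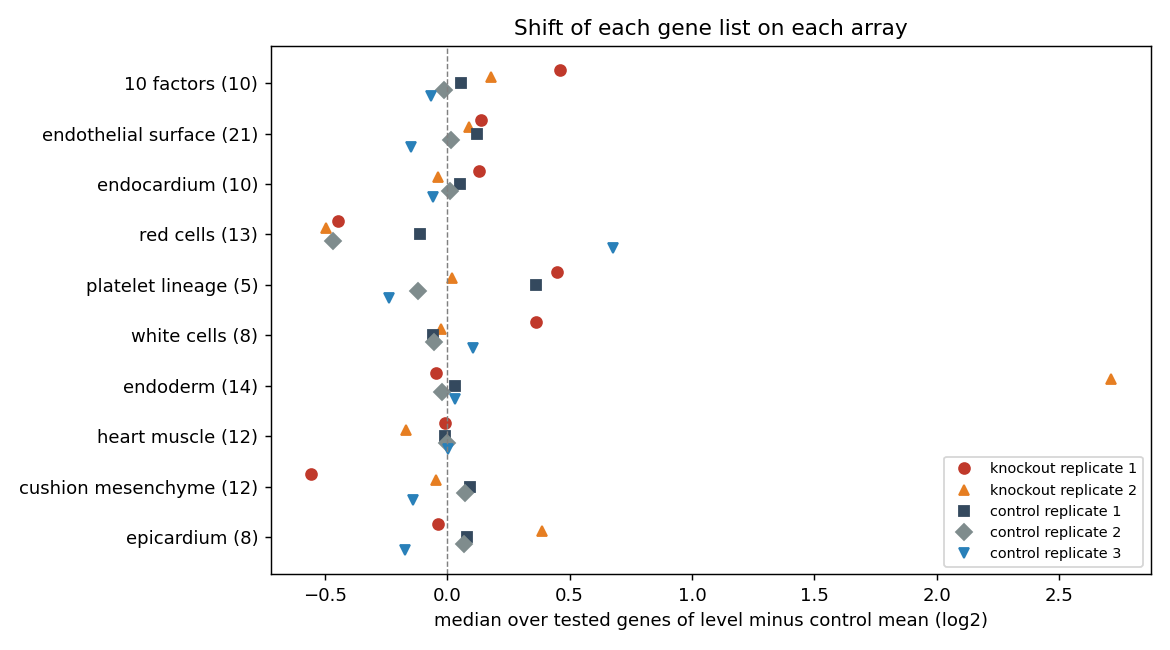
Median over the tested genes of a list of the level minus the control mean (log2), by array, with the number of tested genes in brackets. The 10 factors stand at 0.46 and 0.18 on the knockout arrays. The endoderm list stands at 2.71 on knockout replicate 2 alone, and the red cell list at 0.68 on control replicate 3.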

How the data were processed

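Total RNA was extracted with Trizol from 5 embryonic hearts or heart pools, and 20 ng was amplified and biotin-labelled, per the labels' protocols. The log2 levels were deposited by the authors as 1 table, made with Affymetrix Expression Console and RMA per the submitters' processing notes. Their versions and settings, and the build of the probe sets, were not given in the sources used here. Of 24479 probe sets, 23281 carried 1 gene symbol in the platform annotation, of which 23156 were found in RefSeq (GRCm38.p6) by gene number. No raw intensities were used, and precision is limited by having 5 arrays.

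Knockout and control arrays were compared with the lmFit and eBayes functions of limma 3.58.1 under R 4.3.3, as a two-sided test with no covariate and Benjamini-Hochberg adjustment over the 13967 genes whose mean reached the 40th percentile. The 9312 dimmer genes were not tested. With 2 arrays against 3, no permutation p can fall below 0.1. The steps were tested on simulated data.

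The 10 factors and all gene lists were chosen with earlier results of these data known. The genes named are the 10 factors, Lrrfip2, up to 4 genes with the smallest p of a list, any gene of the lists of endothelial factors, Tal1 partners and endothelial surface genes, cell type markers by array, and the 5 nearest neighbours of Hhex and Sox7. Other named genes (Nfatc4, Nfat5, the calcineurin genes, Cldn5, Etv2) were chosen from those lists after their values were seen.

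Alternatives were other filters on dim genes, limma's trend and robust priors, array weights, quantile normalization again, centring on the median or on endothelial surface genes, averaged probe sets and leaving out each array.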

Additional observations from a re-analysis of the deposited data

How the results depend on the processing

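No paired analysis was possible because the sample numbers in the labels are not shared between the groups. The count of 0 factors past the adjusted threshold (5 at an unadjusted p under 0.05) became 1 with arrays centred on endothelial surface genes and ranged from 0 to 3 when 1 array was left out. The 3 were Hhex, Sox17 and Erg without knockout replicate 2, a fit in which 1011 genes passed and which assumes that the lone knockout array varies like the controls. The number at an unadjusted p under 0.05 ranged from 2 to 5 with 1 array left out, while the share of all genes ran from 5.53% (without control replicate 1) to 27.4% (without knockout replicate 2), so these counts are not on 1 scale. It was 2 without control replicate 2 (Hhex and Sox7; 5.63% of all genes), 3 without control replicate 3 (Hhex, Sox7 and Nfatc1; 7.65%) and 3 without knockout replicate 1 (Hhex, Sox17 and Erg; 17.0%). With endothelial centring, 18.8% of all genes had an unadjusted limma p under 0.05 and 157 genes passed the adjusted threshold. The number of factors higher in the knockout was 5 to 7 over the 13 alternatives. Hhex kept an unadjusted p under 0.05 in all 13 and an adjusted p between 0.0021 and 0.711.

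The sign turned for Sox18, at -0.0045 with endothelial centring, and ranging from -0.0484 (without knockout replicate 2) to 0.422 (without knockout replicate 1) with 1 array left out. It turned for Erg, at -0.0583 with endothelial centring, and ranging from -0.114 (without knockout replicate 1) to 0.381 (without knockout replicate 2). It did not turn for the other 8 factors with endothelial centring or with any 1 array left out. The cause was not tested. In the 3 other settings that kept all arrays and could move a difference (array weights, quantile normalization again and median centring), the 10 factors had the same sign and side of the threshold as reported. In each of these settings 0 genes passed the adjusted threshold. With array weights the unadjusted limma p of Ets1 was 0.224, and 4 factors were under 0.05 (5.61% of all genes). The filters and priors change only p-values, and averaging probe sets changes nothing for genes with 1 set. With 2 knockout arrays, the 95% intervals of Sox18, Erg, Fli1, Tal1 and Lmo2 all included 0.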
